A study of Mus musculus with 2 samples.

Results

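The nuclear-encoded genes of the mitochondrial respiratory chain were described in single nuclei of the mouse entorhinal cortex. The genes were chosen by symbol alone: every gene of the count tables whose symbol begins with Nduf, Uqcr, Cox4 to Cox8 or Atp5, together with Sdha, Sdhb, Sdhc, Sdhd, Cyc1 and Cycs, leaving out symbols with -ps, which marks pseudogenes. This gave 95 of 31053 genes: 44 counted with complex I, 4 with complex II, 9 with complex III, 1 for cytochrome c, 20 with complex IV and 17 with complex V. The symbol Atp5o stands for 2 of the 17. All nuclei came from male APP/PS1 mice, which carry human amyloid precursor protein and presenilin 1 transgenes with familial Alzheimer's disease mutations. The mice received N-oleoyl-leucine (C18:1-Leu, the OLE group, 25 mg/kg/day) or DMSO (the vehicle group) in alkaline drinking water between 15 and 18 months of age. Each group was 1 library made from the entorhinal cortices of 5 pooled mice. With 1 library per group there was no replicate of either condition, so no test was run and every interval below covers counting error only. Differences between the groups cannot be told apart from differences between the 2 libraries.

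Complexes I, III and IV pass electrons from NADH to oxygen and pump protons across the inner mitochondrial membrane, complex II feeds in electrons from succinate, and complex V uses the proton gradient to make ATP. Most subunits are encoded in the nucleus and imported from the cytosol, while a small set of core subunits of complexes I, III, IV and V is encoded by mitochondrial DNA. Neurons depend on this pathway for ion pumping and synaptic transmission, and fast-spiking Pvalb interneurons are known for a high density of mitochondria. The factors NRF1 and GABP, an ETS family factor, are known regulators of many of these genes.

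The vehicle library held 6745 nuclei with a median of 3989 UMIs (unique molecular identifiers, each 1 captured mRNA molecule) and the OLE library held 6173 nuclei with a median of 6392 UMIs. In all, 14 barcodes occurred in both libraries. After the nuclei with the top 5% of doublet scores were removed, 6379 vehicle and 5848 OLE nuclei were clustered with the 95 genes left out of the variable genes, so that no class rests on them. Classes were named from markers: all 15 astrocyte markers, all 16 microglia markers, all 10 oligodendrocyte precursor cell (OPC) markers and 14 of 15 oligodendrocyte markers were raised in their clusters. In the vascular leptomeningeal-like clusters 7 and 10 of 12 own markers were raised, beside 7 of 15 astrocyte markers in each. In the glutamatergic-like clusters 7 to 12 of 15 own markers were raised. The glutamatergic-like class (1819 vehicle and 1801 OLE nuclei) and the GABAergic-like class (321 and 354 nuclei) were the deepest of the named classes, with medians of 12132 to 31960 UMIs in their clusters. Cluster 0 (2470 and 1994 nuclei) stayed unnamed, since 13 of 15 oligodendrocyte and 12 of 15 glutamatergic markers were raised in it, and its median was 2364 UMIs in vehicle but 4734 in OLE. Cluster 3 (360 and 420 nuclei), led by Fth1, mt-Co1 and mt-Nd3, also stayed unnamed. So did cluster 18 (64 and 77 nuclei) and cluster 19 (87 and 46 nuclei), in which 12 and 9 of 15 glutamatergic markers were raised. A marker of another class was among the top genes of each, and they are not part of the glutamatergic-like class. A level below is the UMIs of a gene, or of the 95 genes together, per 1000000 UMIs of the same nuclei and library (CPM).

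Of the 95 genes, 92 had at least 1 UMI in the retained nuclei. Cox8c, a testis isoform, was listed at 0. Ndufa13 (a complex I subunit) and Cox4i1 (the ubiquitous complex IV subunit 4) were also listed at 0 in every nucleus, and 100% of each gene model lies within another gene on the same strand, Yjefn3 and Gm20388 respectively. A value of 0 for these 2 genes is therefore not read as absence of their mRNA. In all, 7 of the 95 genes overlap another gene model on the same strand, among them Ndufb2, Ndufb8, Ndufb9 and both Atp5o models, and reads shared between such models could not be assigned. Since introns were counted, a gene's UMIs also depend on its length, and levels of different genes are not compared.

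Promoter sequences were available from RefSeq (GRCm38.p6) for 75 of the gene symbols, in 80 windows reaching from 250 bases before to 50 bases after a start. The NRF1 core, written as GCGC, any 2 bases and GCGC, was in 22 of the 80 windows (27.5%) and in 6.23% of all 32851 windows of the same table, searched on both strands. The ETS core CCGGAAG, to which GABP binds, was in 22.5% of the members' windows and in 8.86% of all windows. At least 1 of the 2 motifs was in 45% of the members' windows against 13.95% of all windows. Cox6a1 (a complex IV subunit) and Atp5h (subunit d of ATP synthase) are shown because both motifs were in their windows, and Ndufa4 (a complex IV subunit) because neither was found there and its level differed most between the libraries over all retained nuclei. Capitals mark the matches to the 2 motifs.
Cox6a1, chr5:115348909-115349208, minus strand: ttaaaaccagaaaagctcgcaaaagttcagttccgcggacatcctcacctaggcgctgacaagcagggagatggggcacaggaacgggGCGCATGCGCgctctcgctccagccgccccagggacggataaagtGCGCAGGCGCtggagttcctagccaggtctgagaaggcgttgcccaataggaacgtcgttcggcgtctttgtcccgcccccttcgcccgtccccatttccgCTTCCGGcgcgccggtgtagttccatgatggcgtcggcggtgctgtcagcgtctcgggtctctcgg
Atp5h, chr11:115419870-115420169, minus strand: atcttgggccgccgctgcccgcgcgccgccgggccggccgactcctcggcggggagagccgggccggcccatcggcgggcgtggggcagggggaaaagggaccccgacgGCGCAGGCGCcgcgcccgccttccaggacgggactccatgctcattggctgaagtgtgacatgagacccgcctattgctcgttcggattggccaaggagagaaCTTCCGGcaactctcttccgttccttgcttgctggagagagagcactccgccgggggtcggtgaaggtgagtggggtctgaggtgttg
Ndufa4, chr6:11907401-11907700, minus strand: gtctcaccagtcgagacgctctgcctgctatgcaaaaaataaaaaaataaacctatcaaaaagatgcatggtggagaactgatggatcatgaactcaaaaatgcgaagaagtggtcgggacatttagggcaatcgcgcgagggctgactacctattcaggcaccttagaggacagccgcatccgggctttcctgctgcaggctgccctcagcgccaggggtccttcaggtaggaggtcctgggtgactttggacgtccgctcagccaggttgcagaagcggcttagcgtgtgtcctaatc

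The summed level of the 95 genes differed between classes in both libraries. Among the named classes it was lowest in glutamatergic-like nuclei, at 1725 CPM in vehicle (95% interval 1712 to 1737) and 1952 in OLE (1938 to 1966). OPC-like nuclei were close to them, at 1885 and 2171 CPM. GABAergic-like nuclei held 2205 and 2635 CPM and oligodendrocyte-like nuclei 2225 and 2698 CPM, and in vehicle the intervals of these 2 classes overlapped. Astrocyte-like nuclei (2719 and 2897 CPM) and microglia-like nuclei (2737 and 3111 CPM) were higher, with overlapping intervals between the 2 classes. Vascular leptomeningeal-like nuclei held 3146 and 4259 CPM. Among the named classes the summed level was highest in the 15 vehicle and 39 OLE endothelial-like nuclei, at 5866 and 8495 CPM. The unnamed clusters 0 and 3 held 3595 and 4339, and 6707 and 8393 CPM. The unnamed clusters 18 and 19 held 2036 and 2260, and 1787 and 1900 CPM.

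**Figure D1:**
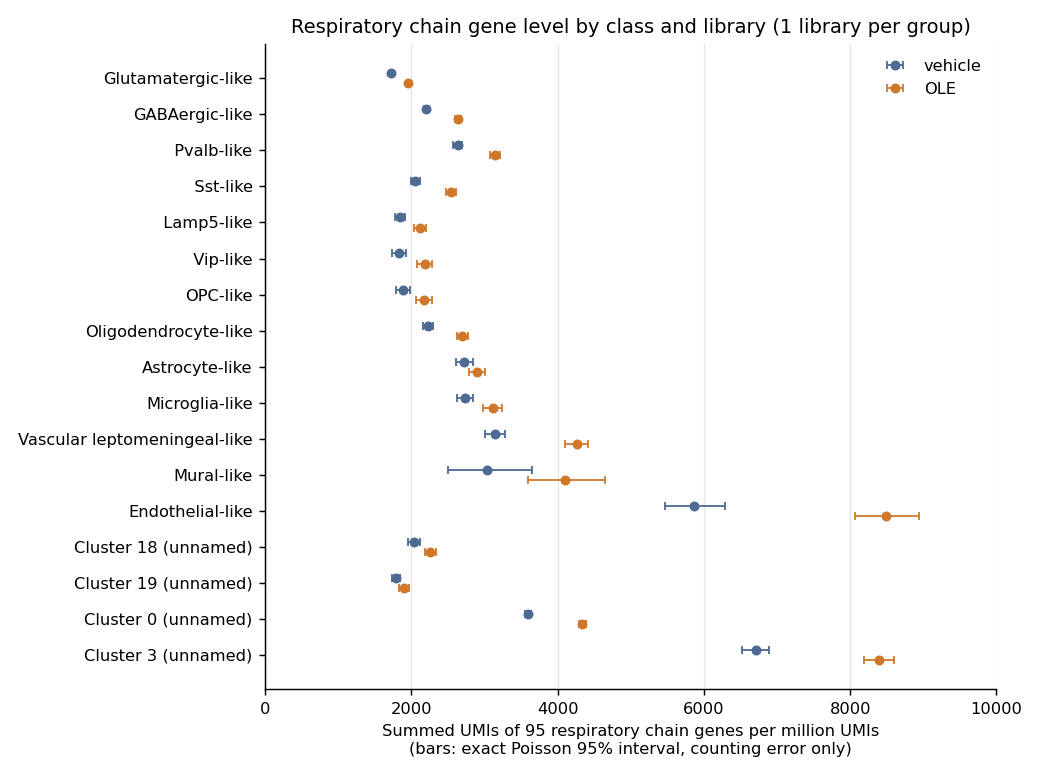
Summed level of the 95 respiratory chain genes in CPM (horizontal axis) in each class or unnamed cluster (rows), with vehicle in blue and OLE in orange. Points are single libraries and bars are exact Poisson 95% intervals. In every row the OLE point lies to the right of the vehicle point, with 1725 and 1952 CPM in glutamatergic-like nuclei, 6707 and 8393 in cluster 3, and 5866 and 8495 in endothelial-like nuclei.

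Against glutamatergic-like nuclei of the same library, the summed level in GABAergic-like nuclei was higher by 0.35 on the log2 scale in vehicle (0.33 to 0.38) and by 0.43 in OLE (0.41 to 0.46). Of the 87 genes that reached 100 UMIs over both classes, 75 were above glutamatergic-like nuclei in both libraries, where 46.4% of 14504 genes were. The shift was shallow: 8 of the 87 passed 1.5-fold in both libraries, against 10.5% of all genes. When no doublets were removed a further cluster joined the GABAergic-like class, and the differences were 0.21 and 0.27. Microglia-like nuclei were higher by 0.67 in each library, and 49 of 86 genes passed 1.5-fold in both libraries against 34.2% of all genes. In vascular leptomeningeal-like nuclei 57 of 86 genes did, against 31.3%. In oligodendrocyte-like nuclei 28 of 86 did, against 24.7%, and 4 genes lay past 1.5-fold below, against 26.3%. In astrocyte-like nuclei 32 of 86 did, against 23.5%. In OPC-like nuclei the sum was higher by 0.13 in vehicle and 0.15 in OLE, with 8 of 86 past 1.5-fold above (18.6% of all genes) and 5 below (19.8%). The depth differed between these classes, with median UMIs of 2441 in vehicle microglia-like against 20916 in vehicle glutamatergic-like nuclei. When each nucleus was thinned to 1000 UMIs, the vehicle values were 2.80 and 1.81 UMIs of the 95 genes per 1000, against 2.74 and 1.72 unthinned. In cluster 3, the highest of the unnamed clusters, mitochondrial DNA gave at least 5% of the UMIs in 56.7% of vehicle and 50.5% of OLE nuclei. The part of mitochondria attached to nuclei or of RNA from broken cells in the class order was not tested.

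The summed level was higher in the OLE library in all 26 clusters, and in 24 of them the counting interval of the log2 ratio lay above 0. The summed ribosomal protein genes were also higher by value in OLE in 25 of the 26 clusters, among them all 12 glutamatergic-like ones. All clusters come from the same 2 libraries. Whether the shared direction is particular to the sum of the respiratory chain genes was not tested. The OLE-to-vehicle log2 ratio of the sum stood at 0.18 in glutamatergic-like nuclei (0.16 to 0.19), 0.26 in GABAergic-like (0.23 to 0.29), 0.28 in oligodendrocyte-like (0.22 to 0.34), 0.18 in microglia-like (0.10 to 0.27) and 0.09 in astrocyte-like nuclei (0.01 to 0.18). The astrocyte-like value was 0.06 (-0.02 to 0.14) under TMM scaling, a scaling by factors estimated across genes, and 0.04 (-0.17 to 0.25) with each nucleus thinned to 1000 UMIs, and these intervals held 0. In glutamatergic-like nuclei the GABAergic markers summed to 212 CPM in vehicle and 323 in OLE, and their part in the ratio there was not tested. Over the 12 glutamatergic-like clusters it ranged from 0.08 to 0.29, with a median of 0.19. The vascular leptomeningeal-like clusters differed from each other: the one led by Bnc2, Adamtsl3 and Mgp gave 0.59 (0.49 to 0.69) and the one led by Ranbp3l, Slc6a20a and Slc7a11 gave 0.07 (-0.08 to 0.22). In the first of these the mRNAs of mitochondrial DNA summed to 103764 CPM in vehicle and 89651 in OLE, and the ribosomal protein genes gave a log2 ratio of 0.98 (0.91 to 1.06). The part of these differences in the value of 0.59 was not tested. In endothelial-like nuclei it was 0.53 (0.41 to 0.66), and there the haemoglobin genes Hba-a1, Hba-a2, Hbb-bs and Hbb-bt, markers of red blood cells, summed to 110 CPM in vehicle and 6865 in OLE. In microglia-like nuclei the same genes summed to 407 CPM in vehicle and 67.4 in OLE. The part of blood RNA in the values of these 2 classes was not tested.

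Gene by gene, most members that reached 100 UMIs over both libraries were higher in OLE. In glutamatergic-like nuclei 79 of 86 were, against 66.9% of 13987 genes, and their median log2 ratio was 0.23 against 0.07 for all genes. In GABAergic-like nuclei 65 of 75 were higher, against 65.8% of all genes, with medians of 0.28 and 0.08. In oligodendrocyte-like nuclei 29 of 36 were higher, against 53.1%, with medians of 0.26 and 0.02. Few were past 1.5-fold: 6 of 86 in glutamatergic-like nuclei (all genes 3.8%), 16 of 75 in GABAergic-like nuclei (5.61%) and 6 of 36 in oligodendrocyte-like nuclei (2.89%). No member was past 1.5-fold lower in any of these 3 classes, where 0.172%, 0.341% and 0.873% of all genes were. In astrocyte-like and microglia-like nuclei 10 and 8 members reached 100 UMIs, and none was past 1.5-fold higher, against 2.54% and 2.11% of all genes. Scaled by TMM (trimmed mean of M values), the summed log2 ratio in glutamatergic-like nuclei was 0.11, and in GABAergic-like nuclei 0.16. With each glutamatergic-like nucleus thinned to 1000 UMIs, 23 members reached the floor and their median log2 ratio was -0.0084, while the summed ratio was 0.11. The unthinned median of 0.23 covered 86 members, and the unthinned median of these 23 was not computed. With a floor of 200 UMIs the counts past 1.5-fold were 8 in GABAergic-like and 0 in oligodendrocyte-like nuclei. The shares of all genes at that floor were not computed.

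**Figure D2:**
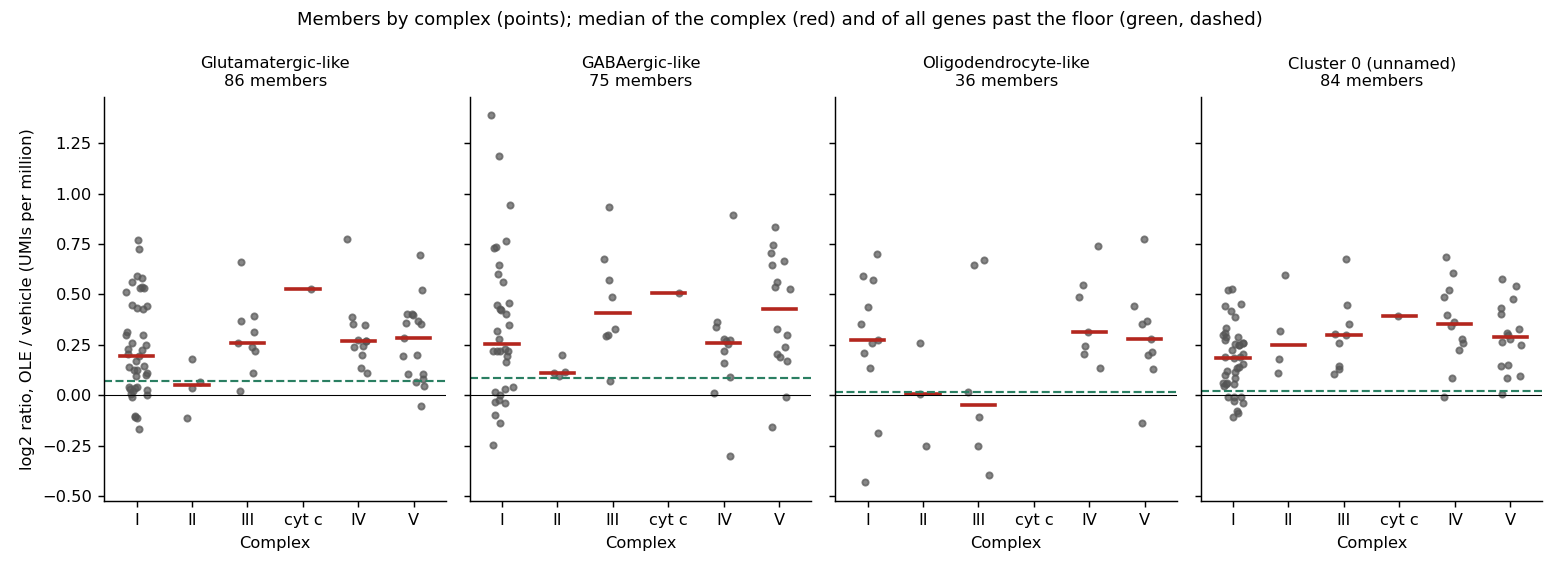
Log2 ratio of OLE to vehicle (vertical axis, CPM) for each member with at least 100 UMIs, by complex (horizontal axis), in 4 groups of nuclei. Each point is a gene, red lines are the median of a complex and the dashed green line is the median of all genes past the same floor. In glutamatergic-like nuclei complex II sits at the dashed line (0.05 against 0.07), while complexes III, IV and V lie at 0.26 to 0.28.

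Complex I takes electrons from NADH. Its 7 core subunits, which hold the flavin and iron-sulphur clusters, summed to 212 CPM in vehicle and 217 in OLE in glutamatergic-like nuclei, which is a log2 ratio of 0.03 (-0.01 to 0.07). Ndufs1, the largest of them, was 75.0 CPM in vehicle and 75.1 in OLE, and Ndufv1, which binds NADH, gave a log2 ratio of 0.14. Ndufv2, a core subunit with an iron-sulphur cluster, was 48.4 CPM in vehicle and 44.7 in OLE, and its log2 ratio of -0.11 (-0.21 to -0.02) was the only one among the 86 members with an interval below 0. In the same nuclei 51 members had an interval above 0, against 29.7% of all genes above and 9.21% below.

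The 29 accessory subunits of complex I, which surround the core, summed to 389 CPM in vehicle and 443 in OLE in glutamatergic-like nuclei, which is a log2 ratio of 0.19 (0.15 to 0.22). The highest ratios were those of Ndufb11, at 4.83 and 8.25 CPM (0.77, 0.51 to 1.03), Ndufb8, at 2.70 and 4.47 (0.73), and Ndufb9, at 7.89 and 11.9 (0.59). These 3 genes belong to the membrane arm, and Ndufb8 and Ndufb9 overlap other gene models. Ndufb11 was also furthest apart in GABAergic-like nuclei, at 5.31 CPM in vehicle and 13.9 in OLE, 1.39 on the log2 scale (0.82 to 1.98), from 37 and 91 UMIs. Ndufa5 (1.19) and Ndufc2 (0.94) followed it there. Ndufb4 was at the other end, with 10.8 and 9.63 CPM in glutamatergic-like nuclei and a ratio of -0.17 (-0.37 to 0.03).

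The 8 Ndufaf genes encode assembly factors of complex I and no subunits. Their sum was at 182 CPM in OLE and 171 in vehicle in glutamatergic-like nuclei, 0.09 on the log2 scale (0.04 to 0.14), and GABAergic-like nuclei gave 0.04 (-0.07 to 0.14). Ndufaf5 was lower in OLE by value in both, at -0.11 and -0.14, with intervals that held 0. Of 36 assembly factors and chain genes outside the symbol rule, such as Surf1, Sco1, Bcs1l and Tmem70, 34 reached the floor in glutamatergic-like nuclei. Of these, 25 were above 0, against 66.9% of all genes, and 2 were past 1.5-fold higher, against 3.8%. The summed log2 ratio of the 36 was 0.11 (0.09 to 0.13).

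Complex II, succinate dehydrogenase, is the only complex with no subunit from mitochondrial DNA, and it is also an enzyme of the tricarboxylic acid cycle. Its 4 genes summed to 153 CPM in vehicle and 155 in OLE in glutamatergic-like nuclei, which is a log2 ratio of 0.02 (-0.03 to 0.07). Sdha, the flavoprotein, was 81.1 CPM in vehicle and 83.0 in OLE, and Sdhb, the iron-sulphur subunit, gave 0.06. Sdhc and Sdhd anchor the enzyme in the membrane and gave -0.11 and 0.18. In GABAergic-like nuclei the 4 genes lay between 0.10 and 0.20. The 13 genes of the tricarboxylic acid cycle gave a summed log2 ratio of 0.06 (0.03 to 0.09) in glutamatergic-like nuclei.

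Complex III passes electrons from ubiquinol to cytochrome c. Its 9 genes were all higher in OLE in glutamatergic-like nuclei, against 66.9% of all genes, with a summed log2 ratio of 0.20 (0.15 to 0.25). Uqcrb, a small subunit close to the quinone site, was 5.95 CPM in vehicle and 9.40 in OLE (0.66, 0.43 to 0.90), and in GABAergic-like nuclei it was 8.32 and 15.9 (0.93). Uqcrfs1, the Rieske iron-sulphur protein, gave 0.39 in glutamatergic-like nuclei, and Cyc1, cytochrome c1, gave 0.26. Uqcrc2, a core protein without a redox centre, was 50.1 and 50.9 CPM, a ratio of 0.02. In oligodendrocyte-like nuclei 3 of the 6 complex III genes that reached the floor were above 0, near the 53.1% of all genes there. Uqcrq (0.65) and Cyc1 (0.67) were among the 3. Cycs, the mobile carrier cytochrome c, was 5.71 and 8.23 CPM in glutamatergic-like nuclei, which is a log2 ratio of 0.53 (0.28 to 0.77), and in GABAergic-like nuclei the ratio was 0.51.

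Complex IV, cytochrome c oxidase, reduces oxygen. Of its 20 genes 12 reached the floor in glutamatergic-like nuclei and all 12 were above 0, against 66.9% of all genes. The summed log2 ratio of complex IV was 0.30 (0.26 to 0.34). Ndufa4, once assigned to complex I and now known as a complex IV subunit, was furthest apart, at 15.3 CPM in vehicle and 26.2 in OLE, a log2 ratio of 0.77 (0.63 to 0.92). It was higher in OLE in GABAergic-like nuclei (22.1 and 41.1 CPM, 0.90), oligodendrocyte-like nuclei (34.4 and 57.5, 0.74), cluster 0 (67.4 and 108, 0.68) and cluster 3 (137 and 280, 1.03). Fewer UMIs were counted in astrocyte-like (33.9 and 40.0 CPM) and microglia-like nuclei (40.8 and 56.4 CPM), where the intervals of the ratio held 0. The OLE library was thus the higher one for Ndufa4 in each of these 7 groups. Over all retained nuclei Ndufa4 counted 1650 UMIs in vehicle and 2942 in OLE, the highest log2 ratio of the 88 members past the floor there, at 0.88 (0.79 to 0.96). Cluster 0, with a higher Ndufa4 level than glutamatergic-like nuclei, gave 6590777 of 65848727 vehicle UMIs and 9686355 of 63930268 OLE UMIs in this pool. The part of this difference in the pooled ratio was not tested. The other complex IV genes were closer together: in glutamatergic-like nuclei Cox6c gave 0.39, Cox6a1 0.35, Cox8a 0.35, Cox5a 0.24 and Cox7b 0.11. In thinned nuclei Cox6a1 gave -0.23 (-0.82 to 0.35) and Cox5a -0.34 (-0.93 to 0.24).

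Complex V makes ATP. The 17 genes counted with it gave a summed log2 ratio of 0.25 (0.22 to 0.28) in glutamatergic-like nuclei. Above 0 were 16 of the 17, against 66.9% of all genes. Among the 17, Atp5s does not encode a structural subunit. Atp5a1 and Atp5b encode the alpha and beta subunits of the part of the enzyme where ATP is formed. Atp5a1 was 49.8 CPM in vehicle and 60.6 in OLE, and Atp5b was 48.2 and 62.3, with ratios of 0.28 and 0.37. Atp5j, a subunit of the peripheral stalk, was 9.62 and 15.6 CPM (0.69, 0.51 to 0.88), and Atp5h, another stalk subunit, gave 0.52. Atp5c1, the gamma subunit of the central stalk, gave 0.04. The genes Atp5g1, Atp5g2 and Atp5g3 encode the same mature ring subunit c, and their ratios were 0.35, 0.11 and 0.36 in the glutamatergic-like class and 0.70, 0.56 and 0.84 in the GABAergic-like class. The shorter Atp5o model counted 122 and 109 UMIs, and the longer one, which overlaps Donson and Cryzl1, gave 0.40.

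In glutamatergic-like nuclei the 13 mRNAs of mitochondrial DNA summed to 3327 CPM in vehicle and 3198 in OLE, a log2 ratio of -0.06 (-0.07 to -0.05), against 0.18 for the 95 nuclear genes. In oligodendrocyte-like nuclei the same 13 gave -0.10 against 0.28. The sign varied among clusters: the log2 ratio of their sum was above 0 in 10 of all 26 clusters and in 5 of the 12 glutamatergic-like ones, where it ran from -0.58 to 0.62. It was 0.07 in astrocyte-like, 0.21 in endothelial-like and 0.70 in mural-like nuclei and 0.03 in cluster 0. The 83 cytosolic ribosomal protein genes were further apart than the respiratory chain genes, at 0.51 and 0.50 in the glutamatergic-like and GABAergic-like classes. The 39 proteasome genes gave 0.09 and 0.16 in these classes. The 13 regulators, among them Nrf1, Gabpa, Ppargc1a and Tfam, gave -0.06 (-0.08 to -0.04) in glutamatergic-like nuclei. Of the 13, 5 were above 0, against 66.9% of all genes, and none was past 1.5-fold, against 3.8% higher and 0.172% lower. Cluster 3 stood apart, with ribosomal protein genes at -0.06 and the 95 genes at 0.32.

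In 3 classes the members' median ratio was lower in the bin from 10 to 30 kb than in the bins of shorter genes. The gene models of the 95 genes span a median of 7382 bases, against 27064 for all genes that reached 100 UMIs. In glutamatergic-like nuclei the 27 members up to 5 kb had a median log2 ratio of 0.35, the 28 between 5 and 10 kb 0.20 and the 24 between 10 and 30 kb 0.10. The other genes of the same spans had medians of 0.26, 0.17 and 0.10. In GABAergic-like nuclei the members gave 0.44, 0.44 and 0.19 against 0.39, 0.26 and 0.16, and in oligodendrocyte-like nuclei 0.37, 0.31 and 0.21 against 0.31, 0.17 and 0.10. Beside other genes of their length, the members' medians in these bins stood 0.00 to 0.18 above on the log2 scale. The bins over 30 kb held 2 to 4 members each. Between 30 and 100 kb the members gave 0.00 against 0.03 in glutamatergic-like, -0.03 against 0.05 in GABAergic-like and 0.14 against 0.02 in oligodendrocyte-like nuclei, and over 100 kb 0.16 against -0.01, -0.03 against -0.02 and 0.08 against -0.07. In astrocyte-like nuclei, with 1 to 4 members in a bin, the members' medians followed no such order. The part of gene length, or of what moves with it between the libraries, in these ratios was not tested further.

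**Figure D3:**
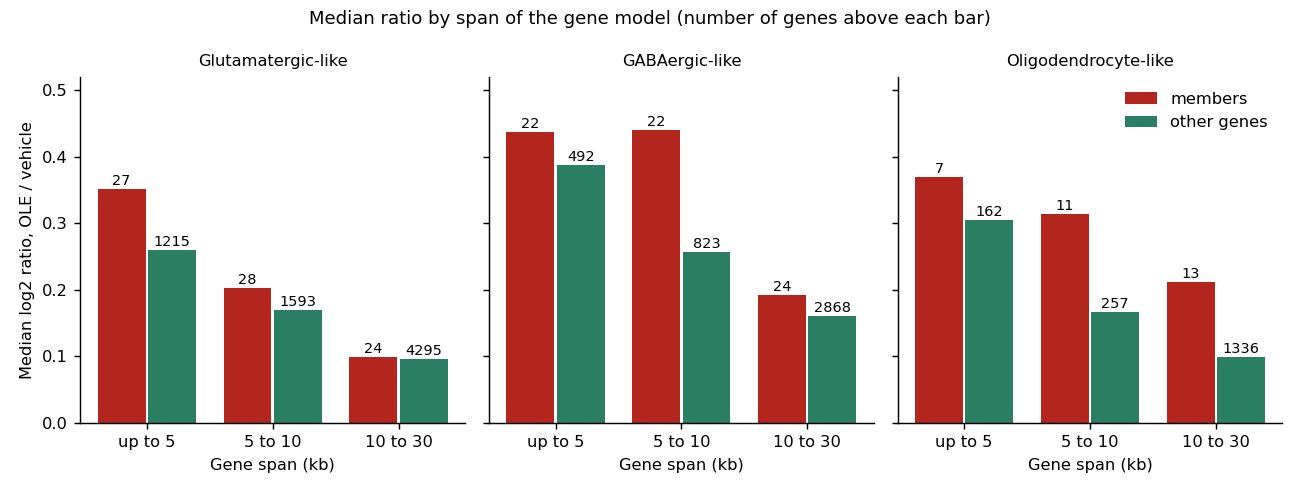
Median log2 ratio of OLE to vehicle (vertical axis) for members (red) and all other genes (green) with at least 100 UMIs, by span of the gene model in kb (horizontal axis), in 3 classes. Numbers above the bars count genes. In glutamatergic-like nuclei the medians of members and other genes go from 0.35 and 0.26 up to 5 kb to 0.10 and 0.10 between 10 and 30 kb.

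In glutamatergic-like nuclei the 36 members past the floor with an NRF1 or ETS core in a window had a median log2 ratio of 0.23, and the 36 without one had 0.21. The difference between these medians was not tested.

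Several complex IV subunits have isoforms that are known from particular tissues, and their levels are given here by class. Cox6a2, the heart and muscle form of subunit 6a, was 12.7 CPM in vehicle and 18.1 in OLE in Pvalb-like interneurons (34 and 44 UMIs), against 0.118 and 0.153 in glutamatergic-like nuclei (5 and 6 UMIs). The other interneuron subclasses had 1 to 4 UMIs per library, at 1.01 to 2.44 CPM. Microglia-like nuclei had 3 and 7 UMIs, at 3.40 and 9.63 CPM. The unnamed cluster 3 held Cox6a2 at 14.7 CPM in vehicle and 18.1 in OLE, from 11 and 14 UMIs, so the level in Pvalb-like interneurons was not particular to them. The paired form Cox6a1 was at 32.5 and 38.3 CPM in Pvalb-like and 24.0 and 29.7 in other interneurons. Cox7b2, a testis form of subunit 7b, was seen in Pvalb-like (15.0 and 11.9 CPM), Sst-like (11.6 and 9.04), Lamp5-like (15.6 and 13.1) and astrocyte-like nuclei (13.1 and 13.7), and at 5.24 and 6.34 in glutamatergic-like nuclei. In Vip-like nuclei it had 0 and 3 UMIs, and a count of 0 there allows up to 4.28 CPM. Cox6b2, a testis form of subunit 6b, was at 13.1 and 11.4 CPM in astrocyte-like, 8.72 and 7.33 in oligodendrocyte-like and 20.1 and 33.2 in vascular leptomeningeal-like nuclei, and at 0.118 and 0.153 in glutamatergic-like nuclei. For these 3 isoforms the intervals of OLE and vehicle overlapped in each class named.

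Cox4i2 and Ndufa4l2, forms that are known to respond to low oxygen, were found in the vascular classes. Ndufa4l2 counted 25 vehicle and 11 OLE UMIs in endothelial-like nuclei, 183 (118 to 270) and 62.5 (31.2 to 112) CPM. In mural-like nuclei the order was opposite, with 2 and 11 UMIs, 53.7 and 186 CPM, and the log2 ratio of 1.80 had an interval from -0.40 to 5.01. In glutamatergic-like nuclei Ndufa4l2 was 0.0711 and 0.204 CPM. Cox4i2 counted 7 and 5 UMIs in endothelial-like and 1 and 4 in mural-like nuclei, and it was at 0 in every interneuron subclass. With 15 to 39 endothelial-like and 11 to 16 mural-like nuclei per library, these values rest on few cells. Rgs5 was among the top genes of both the endothelial-like and the mural-like cluster. The part of mural RNA in the endothelial-like values of Ndufa4l2 and Cox4i2, and in their difference between the libraries, was not tested. Atp5e, Ndufa7, Cox6a1, Cox7c and Cox8a were also at least 4-fold higher in endothelial-like than in glutamatergic-like nuclei in both libraries, from 4.99-fold (Cox6a1, OLE) to 30.4-fold (Atp5e, vehicle). Ndufb7 and Ndufb9 were so in vascular leptomeningeal-like nuclei, by 4.27-fold to 5.71-fold. Cox7a1, the muscle form of subunit 7a, had 17 and 24 UMIs over all retained nuclei, and Cox8b, the muscle form of subunit 8, had 1 and 6.

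**Figure D4:**
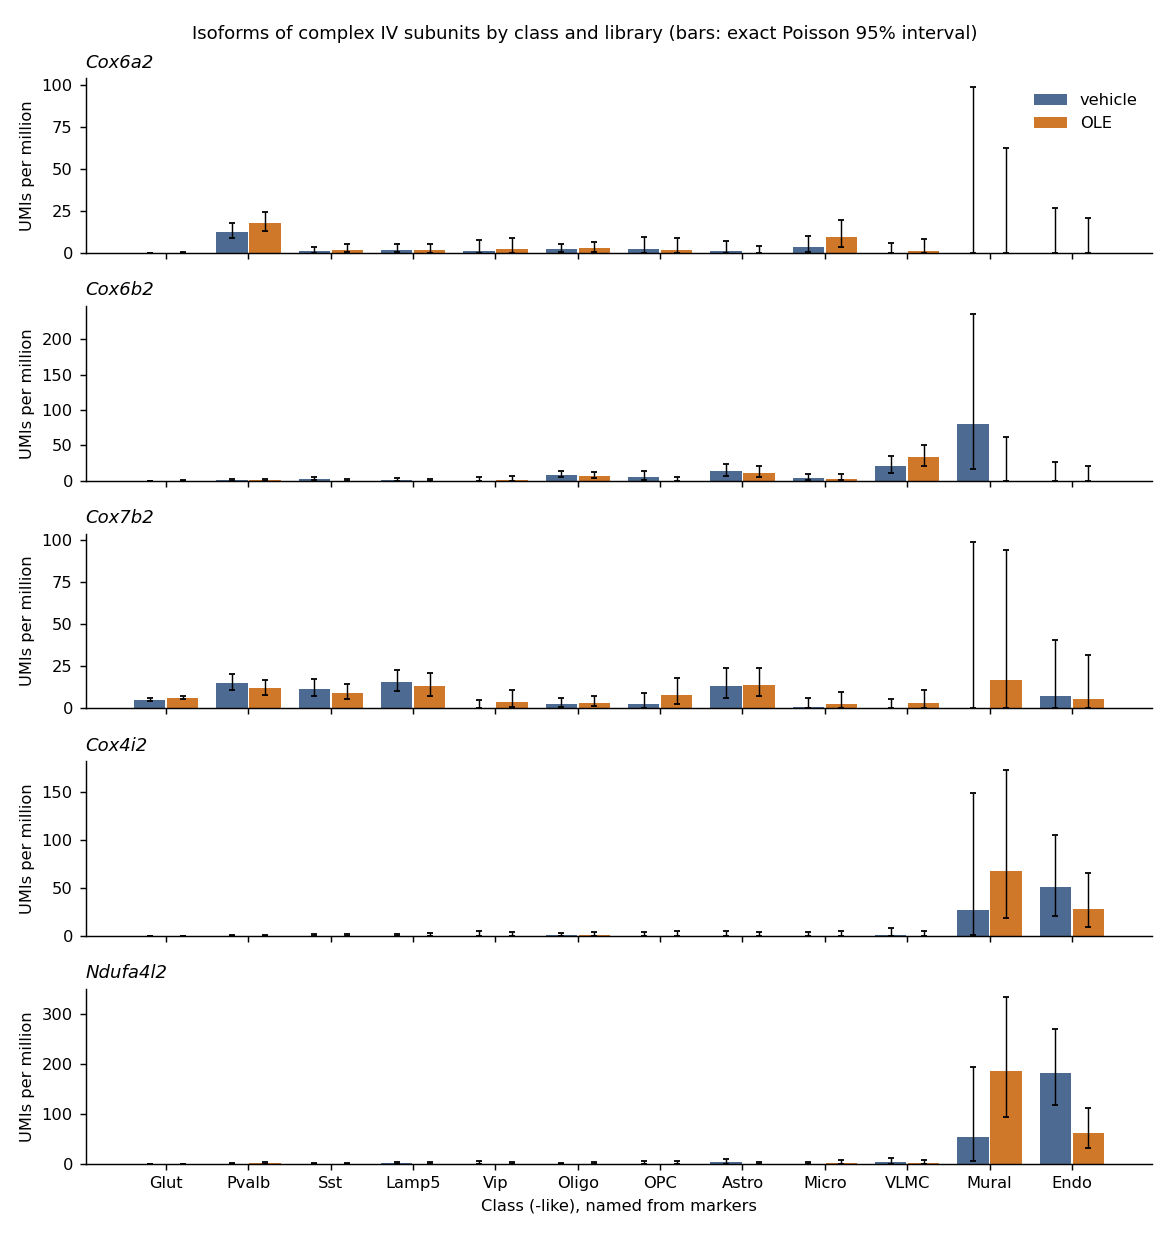
CPM of 5 complex IV isoforms (one panel each, vertical axes differ) in 12 classes (horizontal axis), vehicle in blue and OLE in orange, with exact Poisson 95% intervals. Among the 12 classes shown, Cox6a2 stands out in Pvalb-like interneurons (12.7 and 18.1 CPM), and Cox4i2 and Ndufa4l2 in mural-like and endothelial-like nuclei, where the intervals are wide. The unnamed cluster 3, which is not shown, held Cox6a2 at 14.7 and 18.1 CPM.

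Within the GABAergic-like class the 95 genes were highest in Pvalb-like interneurons in both libraries. The summed level was 2634 CPM in vehicle (2573 to 2696) and 3146 in OLE (3076 to 3217), from 116 and 121 nuclei. Sst-like interneurons held 2054 and 2535, Lamp5-like 1841 and 2119 and Vip-like 1829 and 2181 CPM, and the intervals of the Lamp5-like and Vip-like values overlapped in each library. Against the other 3 subclasses combined, the Pvalb-like sum was higher by 0.44 (0.40 to 0.49) on the log2 scale in vehicle and by 0.43 (0.39 to 0.47) in OLE. Of the 75 members past the floor, 60 were above the other interneurons in both libraries, where 36.7% of 9671 genes were. Past 1.5-fold in both libraries were 6 of the 75, against 6.42% of all genes, and none was past 1.5-fold lower, against 9.14%. In the other subclasses, each set against the remaining interneurons, the sum lay below 0 in both libraries. It was -0.14 and -0.08 in Sst-like, -0.30 and -0.31 in Vip-like and -0.33 and -0.38 in Lamp5-like interneurons. Members above 0 in both libraries were 8 of 75 in Sst-like (32.5% of all genes), 7 of 75 in Vip-like (24.3%) and 3 of 75 in Lamp5-like interneurons (30.7%). Past 1.5-fold lower were 9 in Vip-like and 7 in Lamp5-like interneurons, against 11.2% and 7.55% of all genes. These comparisons share nuclei with the Pvalb-like comparison.

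All 5 complexes were higher in Pvalb-like interneurons. The vehicle and OLE log2 ratios were 0.41 and 0.42 for complex I, 0.36 and 0.37 for complex II, 0.43 and 0.42 for complex III, 0.46 and 0.51 for complex IV and 0.52 and 0.42 for complex V. Cox7b, a complex IV subunit, was 75.2 CPM in Pvalb-like and 39.8 in other interneurons of the vehicle library, and 91.4 and 48.7 in the OLE library. Atp5l, subunit g of ATP synthase, was 63.6 and 37.3 in vehicle and 71.2 and 42.6 in OLE. Ndufaf2, an assembly factor, was 80.4 and 43.5 in vehicle and 79.9 and 38.4 in OLE. Ndufa8, Cyc1 and Sdhb were the other members past 1.5-fold in both libraries. Some members were level: Cox8a was 50.9 and 51.0 CPM in vehicle and 60.5 and 54.7 in OLE, with ratios whose intervals held 0.

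Other lists were set against the same interneurons. The tricarboxylic acid cycle genes were higher by 0.54 and 0.47, with 12 of 12 past the floor above 0 in both libraries, against 36.7% of all genes. Proteasome genes were level at -0.03 and 0.00, and ribosomal protein genes were lower by value, at -0.30 and -0.28. The mRNAs of mitochondrial DNA were higher in Pvalb-like than in other interneurons in vehicle, by 0.31 (0.28 to 0.35), and lower in OLE, at -0.23 (-0.26 to -0.19). Median UMIs per nucleus were 21485 and 18152 in Pvalb-like interneurons, against 12872 to 19778 in the other subclasses. The Pvalb mRNA itself was sparse, at 37.8 and 60.5 CPM in Pvalb-like and 0.00 to 4.02 in the other subclasses, and 5 of 7 Pvalb interneuron markers were raised.

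**Figure D5:**
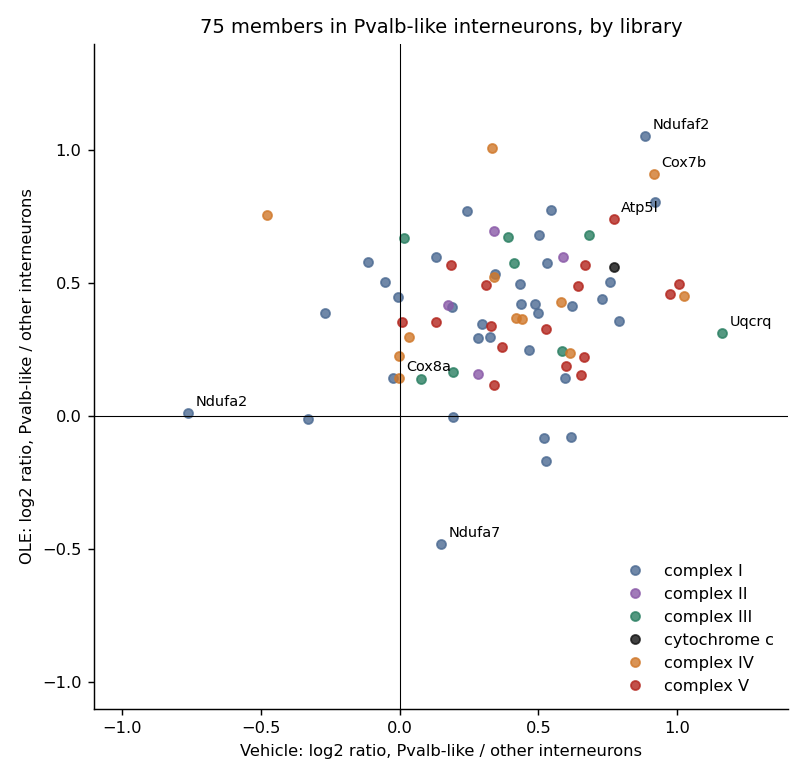
Log2 ratio of Pvalb-like to other interneurons for each of 75 members, in the vehicle library (horizontal axis) and in the OLE library (vertical axis), coloured by complex. In the upper right quadrant lie 60 of the 75 genes. Cox7b and Ndufaf2 are far from 0 in both libraries, while Ndufa2 (-0.76 and 0.01) and Ndufa7 (0.15 and -0.48) are below 0 in 1 library.

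Comparing OLE with vehicle within subclasses, the summed log2 ratio was 0.26 (0.21 to 0.30) in Pvalb-like, 0.30 (0.24 to 0.36) in Sst-like, 0.25 (0.15 to 0.36) in Vip-like and 0.20 (0.13 to 0.28) in Lamp5-like interneurons. All of these intervals overlapped one another. In Pvalb-like interneurons 44 of the 53 members past the floor were higher in OLE, against 61.5% of all genes, and in Sst-like interneurons 26 of 36 were, against 57.1%.

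In the unnamed cluster 0, which held the most nuclei, 75 of 84 members were higher in OLE, against 54.8% of all genes, and the median log2 ratio was 0.26 against 0.02. Past 1.5-fold were 4 of the 84, against 1.26%: Ndufa4 (0.68), Uqcrb (0.68), Cox5a (0.60) and Sdhd (0.60). Sdhd was 15.8 CPM in vehicle and 23.8 in OLE there, and complex II as a whole gave 0.22 (0.13 to 0.31), against 0.02 in glutamatergic-like nuclei. The median depth of cluster 0 was higher in OLE, and red blood cell markers in it were higher in vehicle, at 417 against 71.5 CPM. The part of either in these ratios was not tested.

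Cluster 3 held few UMIs per nucleus, with medians of 1242 in vehicle and 1108.5 in OLE. Of its 47 members past the floor 42 were higher in OLE, against 53.2% of all genes, and 9 were past 1.5-fold, against 8.11%. Complex IV was at 1930 CPM in vehicle and 2370 in OLE (0.30, 0.20 to 0.40), and complex III at 754 and 984 CPM (0.38, 0.22 to 0.54). Beside Ndufa4, the members furthest apart were Cyc1, at 48.1 and 95.9 CPM (1.00, 0.40 to 1.61), Ndufb11, at 53.4 and 95.9 CPM (0.84), and Cox5a, at 77.4 and 137 CPM (0.83). Sdha, near 0 in glutamatergic-like nuclei, gave 0.59 (0.17 to 1.01) there, from 107 and 161 CPM. The mRNAs of mitochondrial DNA were lower by value in OLE in this cluster, at -0.17 (-0.18 to -0.15), while the ribosomal protein genes gave -0.06. Haemoglobin genes summed to 88.1 CPM in vehicle and 308 in OLE, and their part in these values was not tested.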

How the data were processed

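Per the labels and the study's methods, nuclei from frozen entorhinal cortex were profiled with 10x 3′ v3 chemistry, and reads were counted by the authors with Cell Ranger (3.0.1 in the submitters' notes, 3.0.2 in the matrix header) against mm10 pre-mRNA, so that introns count. The authors deposited raw UMI counts per gene and nucleus for each library, 70845739 in vehicle and 69485537 in OLE. The authors state that doublets were removed, and whether this preceded deposit is not given in the sources used here.

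From these counts, Scrublet (scanpy 1.11.5) called 0.104% and 0.130% of nuclei, too few to rely on, so the nuclei with the top 5% of scores were left out. Counts were normalised and clustered in Seurat 5.3.0 (SCTransform 0.4.2, 3000 variable genes, 30 components, resolution 0.4; 15 components for GABAergic-like subclasses), with the 7 members among the variable genes removed. A cluster was named where at least 3 markers of a class were raised 4-fold over the 10th percentile of clusters. It stayed unnamed where another class led its top genes, or where 50% of the markers of another class were raised and none of its own was among its top 10 genes. The same held where none of its own was among them and its median UMIs in both libraries lay below a set fraction of the library median. Only this depth rule left cluster 3 unnamed. Subclass markers were called at 2-fold. That naming rule was set after the clusters were seen. UMIs were summed per class and library and scaled per 1000000 UMIs (CPM). Ratios have exact conditional binomial 95% intervals and levels exact Poisson ones, for counting error only. Ratios are given for genes with at least 100 UMIs over the groups compared, and a gene high in 1 group passes this floor more easily. The ratio script was tested on simulated data.

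The members, lists and comparisons were chosen with earlier results of these data known. Genes named are, per complex, the 3 highest and 3 lowest log2 ratios in glutamatergic-like nuclei (at least 200 UMIs), isoform families, core subunits, and members at least 4-fold above glutamatergic-like nuclei in a class in both libraries; a gene of this rule is not reported here. Ndufa2, Ndufa5, Ndufa8, Ndufaf2, Ndufc2 and Atp5l were named after their values were seen. Gene spans are from GENCODE M21 (GRCm38), which held 31011 of 31053 gene IDs. Alternative scalings (TMM, edgeR 4.0.16), floors, folds, thinning and clusterings are given at the end.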

Additional observations from a re-analysis of the deposited data

Results flagged for a closer look

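Ndufv2, a core subunit of complex I, differed between the libraries in opposite directions in a pair of classes, with both counting intervals clear of 0. Its log2 ratio of OLE to vehicle was 0.57 (0.12 to 1.02) in oligodendrocyte-like nuclei, at 35.3 and 52.4 CPM, and -0.11 (-0.21 to -0.02) in glutamatergic-like nuclei. The oligodendrocyte-like value rests on 77 and 93 UMIs. Ndufv2 was the only gene found when all members past the floor were searched for such a pair over neuronal and glial classes. The number of pairs searched was not allowed for. With 1 library per group the difference between the classes was not tested.

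The 13 mRNAs of mitochondrial DNA summed to 5356 CPM in vehicle and 4151 in OLE in Pvalb-like interneurons, a log2 ratio of -0.37 (-0.40 to -0.33). In Sst-like interneurons they summed to 4771 and 5915 CPM, a log2 ratio of 0.31 (0.27 to 0.35). The nuclear-encoded genes were higher in OLE in both subclasses, at 0.26 and 0.30. This difference between subclasses was not tested either. Opposite signs were also seen among the glutamatergic-like clusters, where the log2 ratio of the same mRNAs ran from -0.58 to 0.62.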

How the results depend on the processing

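No paired analysis was possible because each group is 1 library, and for the same reason no library could be left out. The summed log2 ratio of OLE to vehicle stayed above 0 under each alternative in the 6 classes and 2 clusters for which it was computed. In leptomeningeal-like, endothelial-like and mural-like nuclei and in clusters 18 and 19 it was not recomputed. In astrocyte-like nuclei the interval held 0 under TMM scaling (0.06), thinning (0.04), no doublet removal (0.07), leaving out nuclei with 5% or more mitochondrial UMIs (0.08) and leaving out overlapping gene models (0.07), as it did in OPC-like nuclei with thinning (0.10). In glutamatergic-like nuclei it was 0.11 under TMM scaling, 0.11 when centred on the median of all genes and 0.11 with nuclei thinned to 1000 UMIs. In GABAergic-like nuclei it was 0.16 (TMM) and 0.17 (centred), in oligodendrocyte-like nuclei 0.22 (TMM), and in cluster 3 0.24 (TMM) and 0.39 with no doublets removed. With thinning, 23 members reached the floor in glutamatergic-like nuclei and their median log2 ratio was -0.0084, where all members past the floor unthinned gave 0.23. These medians cover different sets of genes, and the unthinned median of the 23 was not computed. In the thinned nuclei Cox6a1 was -0.23 (-0.82 to 0.35) and Cox5a -0.34 (-0.93 to 0.24). Of the named genes past the floor in these nuclei, 4 stayed within their unthinned counting interval. Of the rest, 2 reversed in sign and 8 moved outside that interval. The counts past the fold depend on the threshold: at 1.2-fold 37, 41 and 17 members in glutamatergic-like, GABAergic-like and oligodendrocyte-like nuclei, at 2-fold 0, 2 and 0. With a floor of 200 UMIs they were 8 in GABAergic-like and 0 in oligodendrocyte-like nuclei, and with 50 UMIs 17 in oligodendrocyte-like nuclei. The shares of all genes at these other folds and floors were not computed. These counts are therefore not read as particular to the members. With no doublets removed the GABAergic-like excess over glutamatergic-like nuclei was 0.21 in vehicle and 0.27 in OLE, as a further cluster joined that class, and the astrocyte-like excess in OLE was 0.49. With thinning the OLE excess was 0.48 in GABAergic-like and 0.53 in oligodendrocyte-like nuclei, and the Pvalb-like excess 0.53 in vehicle and 0.49 in OLE. Interneuron subclasses were not rebuilt for the alternative clusterings. Leaving out overlapping gene models, an alternative chosen after seeing the data, moved none of the 26 summary values beyond its counting interval.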
